A study of Mus musculus with 51 samples.

Results

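The bone morphogenetic protein (BMP) and transforming growth factor beta (TGF-β) genes described here are 10 mouse genes: the ligand genes Bmp4 and Tgfb2, the receptor genes Bmpr1a, Bmpr1b, Bmpr2 and Tgfbr2, the receptor-regulated Smad genes Smad1 and Smad3, and the inhibitory Smad genes Smad6 and Smad7. They were chosen by name, out of 22359 coding genes in the annotation, and every peak that overlapped a gene body or the 10 kb on either side of it was taken. The cells were derived in culture from C57/BL-6 mouse embryonic stem (ES) cells, and 3 stages of one in vitro differentiation were profiled without any knockdown. Astrogliogenic neural progenitor cells (aNPC) were kept in DMEM-F12 with N2, EGF and FGF-2. Early astrocytes (eA) were the same cells after 1 day, and late astrocytes (lA) after 5 days, in DMEM with 1% FBS and leukemia inhibitory factor (LIF). The medium, including serum, LIF, EGF and FGF-2, thus differs between the progenitor and both astrocyte stages and cannot be told apart from stage. Chromatin immunoprecipitation sequencing (ChIP-seq) of H3K27ac, a histone mark of active promoters and enhancers, and of H3K4me1, a mark of active and primed enhancers, gave 1 peak list per stage and mark. Each list was called by the authors on 2 merged libraries. There is thus no replicate error at any stage, no test between stages was possible, and all comparisons below are descriptions of 6 lists.

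BMP and TGF-β ligands bind paired type I and type II serine/threonine kinase receptors at the cell surface. The activated receptors phosphorylate Smad proteins, which enter the nucleus with Smad4 and act on transcription, and the inhibitory Smads, themselves targets of the pathway, limit this signal. In the developing brain BMP signalling together with LIF-type cytokines is a known inducer of astrocyte genes, and TGF-β acts on neural progenitors and astrocytes. RNA levels of the 10 genes were not analysed here, and a peak says where a mark was enriched, not which gene it serves.

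From aNPC through eA to lA, the H3K27ac lists counted 79413, 83433 and 92700 peaks and the H3K4me1 lists 154238, 185478 and 208333. Below, a run of 3 values is in this order unless other items are named. Longer lists give more peaks to any window, sequencing depth is unknown from the files, and the −log10 q values that the peak caller gave to each peak were therefore compared only as a rank, the percent of peaks in the same list with a lower value. A site without a peak is one where none was called, which does not show that the mark is absent. Among markers, an H3K27ac peak lay at the promoter of 4, 3 and 4 of 6 astrocyte genes in aNPC, eA and lA. These were Gfap, Slc1a3 and Slc1a2 at each stage, S100b only in aNPC and Aqp4 only in lA, and Aldh1l1 had none. The same held for 1 of 4 neuronal genes (Tubb3) and 3 of 3 progenitor genes (Nes, Sox2 and Pax6) at each stage, and for none of 3 oligodendrocyte, 3 microglial, 2 endothelial and 2 pluripotency genes.

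The sequences that follow are from the highest-ranked sites that appeared or disappeared between stages, and are referred to again with each gene. Each is 300 bases of the mm9 genome, centred on the peak summit in the list where the site ranked highest. The first group holds the distal H3K27ac sites without a peak in aNPC that reached a rank of at least 80 in an astrocyte list, 1 for each gene that had one. They lie in intron 1 of Tgfbr2 (chr9:116061540-116061839), of Bmpr2 (chr1:59848368-59848667) and of Bmpr1a (chr14:35296929-35297228), shown on the plus strand.
Tgfbr2, eA and lA: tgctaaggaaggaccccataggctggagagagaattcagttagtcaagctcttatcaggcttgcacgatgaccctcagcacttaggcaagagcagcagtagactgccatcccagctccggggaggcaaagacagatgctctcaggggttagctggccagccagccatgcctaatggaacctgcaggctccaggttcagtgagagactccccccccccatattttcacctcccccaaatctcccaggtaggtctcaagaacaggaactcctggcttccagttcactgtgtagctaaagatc
Bmpr2, eA and lA: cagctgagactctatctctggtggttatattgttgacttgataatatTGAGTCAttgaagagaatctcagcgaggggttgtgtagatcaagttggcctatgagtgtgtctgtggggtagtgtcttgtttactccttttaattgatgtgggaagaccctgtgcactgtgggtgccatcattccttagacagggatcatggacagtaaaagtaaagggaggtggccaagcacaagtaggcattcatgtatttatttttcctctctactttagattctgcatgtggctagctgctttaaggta
Bmpr1a, eA and lA: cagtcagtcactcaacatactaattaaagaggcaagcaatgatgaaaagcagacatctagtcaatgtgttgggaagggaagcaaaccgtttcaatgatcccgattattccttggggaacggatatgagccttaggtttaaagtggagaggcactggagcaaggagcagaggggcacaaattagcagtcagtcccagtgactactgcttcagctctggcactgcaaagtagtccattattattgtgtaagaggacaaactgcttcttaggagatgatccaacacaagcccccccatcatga
The opposite group holds distal sites with a peak in aNPC alone that reached a rank of at least 70. They lie in intron 1 of Tgfb2 (chr1:188506190-188506489), of Bmpr2 (chr1:59853007-59853306) and of Tgfbr2 (chr9:116048242-116048541), again on the plus strand.
Tgfb2, aNPC: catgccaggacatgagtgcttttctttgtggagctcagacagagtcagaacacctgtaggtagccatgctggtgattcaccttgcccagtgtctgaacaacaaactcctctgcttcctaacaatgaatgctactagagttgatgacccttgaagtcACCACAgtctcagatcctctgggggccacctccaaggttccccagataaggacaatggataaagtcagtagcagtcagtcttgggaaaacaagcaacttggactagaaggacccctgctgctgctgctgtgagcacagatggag
Bmpr2, aNPC: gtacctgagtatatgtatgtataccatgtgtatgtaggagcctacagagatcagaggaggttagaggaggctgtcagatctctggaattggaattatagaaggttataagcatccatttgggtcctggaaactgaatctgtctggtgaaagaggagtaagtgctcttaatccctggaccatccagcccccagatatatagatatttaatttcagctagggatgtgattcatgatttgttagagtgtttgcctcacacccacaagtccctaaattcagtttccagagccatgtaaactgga
Tgfbr2, aNPC: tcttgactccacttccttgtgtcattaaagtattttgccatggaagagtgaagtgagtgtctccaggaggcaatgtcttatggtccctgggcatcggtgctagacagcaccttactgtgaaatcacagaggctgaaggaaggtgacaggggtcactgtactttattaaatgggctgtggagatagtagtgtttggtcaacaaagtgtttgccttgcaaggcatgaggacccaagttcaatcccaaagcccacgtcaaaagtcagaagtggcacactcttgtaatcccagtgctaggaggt
Finally, the only Bmp4 site marked at all stages (H3K4me1 only, intron 1, chr14:47007483-47007782, plus strand) and the 300 bases before the Smad6 start site (chr9:63869867-63870166, shown on the minus strand, along which the gene is read) are given, the latter because the H3K27ac rank of this promoter differed most between stages.
Bmp4, H3K4me1: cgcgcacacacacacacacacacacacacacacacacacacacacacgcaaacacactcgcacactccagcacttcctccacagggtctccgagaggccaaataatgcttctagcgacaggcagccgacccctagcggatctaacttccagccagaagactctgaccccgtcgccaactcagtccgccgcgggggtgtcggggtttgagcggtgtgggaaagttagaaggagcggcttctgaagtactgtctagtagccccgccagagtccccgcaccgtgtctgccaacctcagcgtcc
Smad6, promoter: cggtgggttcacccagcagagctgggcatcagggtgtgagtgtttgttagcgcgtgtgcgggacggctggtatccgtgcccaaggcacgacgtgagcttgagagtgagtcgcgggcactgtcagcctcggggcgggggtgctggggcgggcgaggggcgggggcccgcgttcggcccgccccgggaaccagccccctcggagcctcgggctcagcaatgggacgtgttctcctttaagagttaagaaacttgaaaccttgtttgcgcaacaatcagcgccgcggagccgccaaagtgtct
Capitals mark matches, on either strand, to 6 motifs: the Smad palindrome GTCTAGAC, a GC-rich Smad box GGCGCC, the AP-1 site TGACTCA, a Stat site TTCCNGGAA, the RUNX core TGTGGT, and the full nuclear factor I (NF1) site, TTGGC and GCCAA set 5 bases apart. An AP-1 match lies in the Bmpr2 site of eA and lA, and a RUNX match in the Tgfb2 site of aNPC. The other 6 windows hold none of these letters, which says only that the letters are not in these bases.

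These motifs were also counted in the 300 bases around the summit of every distal H3K27ac peak. Of 81 such windows at the 10 genes in lA, 6 (7.41%) held AP-1 against 5.9% of 78375 windows in the whole list, and 17 (21%) held RUNX against 21.3%. In eA, 4 of 80 windows held AP-1 (5%, against 6.53% of the list) and 17 held RUNX (21.2%, against 20.5%). In aNPC the counts were 1 of 59 for AP-1 (1.69%, against 6.04%) and 16 for RUNX (27.1%, against 21.4%). The Smad GC-rich box was found in 2, 1 and 3 windows (3.39%, 1.25% and 3.7%, against 2%, 2.2% and 1.88% of the lists), and Stat in 1, 2 and 0 windows against 1%, 1.05% and 1.14% of the lists. The Smad palindrome and the NF1 site were in none, and both are rare, at 0.299%, 0.275% and 0.313% of all windows for the palindrome and 0.0341%, 0.0493% and 0.0268% for NF1. All shares at the 10 genes rest on counts of 17 or fewer, and those of AP-1, Stat and the Smad box on counts of 6 or fewer.

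In the windows of the 10 genes there were 74, 98 and 97 H3K27ac peaks at the successive stages. Of these, 15, 18 and 16 lay at a promoter, defined as 1 kb before to 100 bp after any coding start site of the gene, and 59, 80 and 81 were distal, that is at no coding promoter. H3K4me1 gave 165, 190 and 241 peaks, of which 17, 19 and 17 were at promoters and 148, 171 and 224 distal. No peak in these windows lay at the promoter of another coding gene. The plot of peaks per gene shows that Smad3, Tgfb2 and Smad6 had the highest H3K27ac counts of any stage, and that Bmp4 had none.

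**Figure D1:**
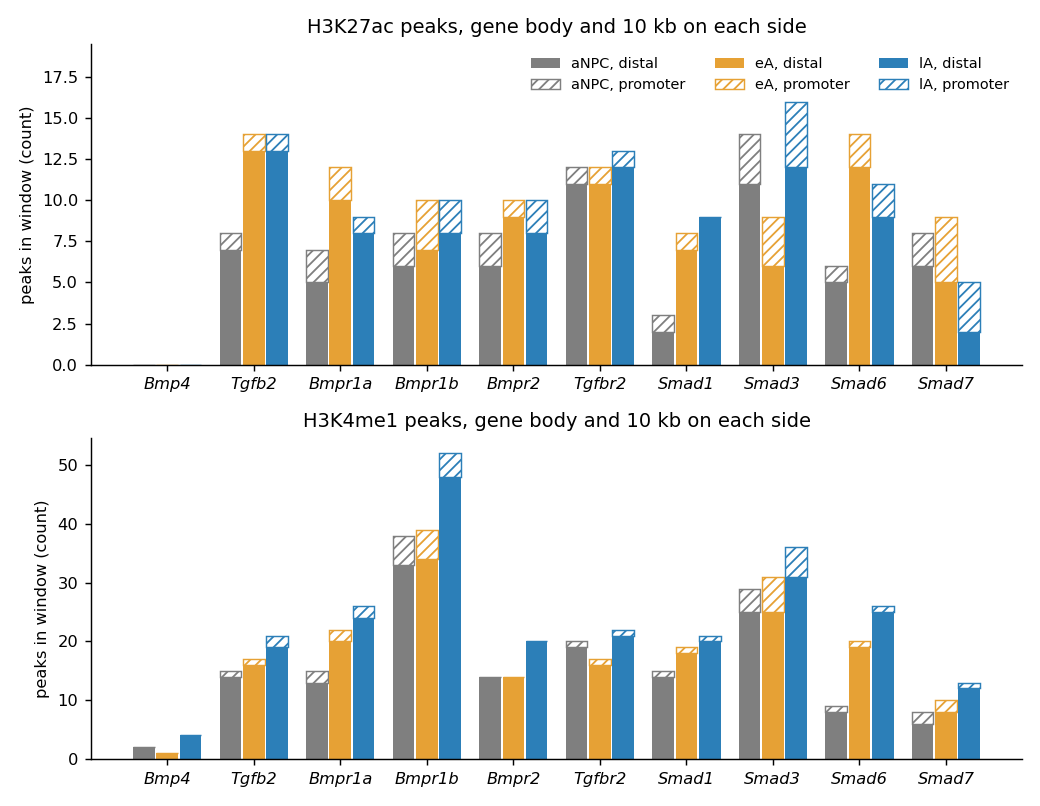
Number of H3K27ac peaks (upper panel) and H3K4me1 peaks (lower panel) in the window of each gene, by stage, 1 list per bar and no replicates; filled bars are distal peaks, hatched bars promoter peaks. Distal H3K4me1 counts were higher in lA than in aNPC at all 10 genes, and at 5 with lists of equal length, and distal H3K27ac counts at 8, among them Smad3 and Tgfbr2, each by 1 peak and neither with lists of equal length.

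Most of the genes carried H3K27ac at a promoter. Of the 10 genes, 9, 9 and 8 had such a peak, where the background over all coding genes was 50.6%, 53.2% and 48.2%. A promoter H3K4me1 peak was present at 8 genes at each stage, against 55.4%, 53.6% and 52.7% of coding genes. These genes are long, and length counts for the distal calls: their windows had a median of 107 kb, against 35.4 kb for all coding genes. At least 1 distal H3K27ac site without a peak in aNPC and with one in lA was found at 9 genes (36.7% of coding genes), the opposite change at 8 (31.5%), and a site marked at all stages at 9 (31.5%). More distal H3K27ac peaks in lA than in aNPC were counted at 8 genes (31.8%) and more distal H3K4me1 peaks at 10 (47.1%). The 8 include Smad3 and Tgfbr2, where the difference was 1 peak. With lists of equal length it was −3 at Smad3 and 0 at Tgfbr2, which left 6 genes. With H3K4me1 lists of equal length, an alternative chosen after the values were seen for this count, more distal peaks in lA were left at 5 of the 10 genes, and the windows held 165, 163 and 176 H3K4me1 peaks in place of 165, 190 and 241. Only Bmp4 had no H3K27ac peak in its window at any stage, as had 24.4% of coding genes.

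Among 1980 coding genes with windows of 80 to 130 kb, a range chosen after the values were seen, these shares were higher. There, 66.3% had a distal H3K27ac site absent in aNPC and present in lA, 56.4% the opposite, 55.1% one at all stages, and 49.9% more distal H3K27ac peaks in lA. Of the 10 genes, 6 fall in this range (Tgfb2, Bmpr1a, Bmpr2, Tgfbr2, Smad1 and Smad6), and of these 6, 5, 6 and 6 were counted in the same order. Distal H3K4me1 peaks were more numerous in lA at all 6, against 67.6%, and a promoter H3K27ac peak was present at 6, 6 and 5, against 68.2%, 71.4% and 64.1%.

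Peaks of the 3 stages that overlapped by at least 1 bp were joined into 110 distal H3K27ac sites. The most frequent pattern was a peak at all stages (28 sites, 25.5%, 95% Wilson interval 18.2 to 34.3%, which covers counting error only and treats sites as independent). Next came sites in eA and lA (21, 19.1%, 12.8 to 27.4%), in lA alone (21, with the same interval), in aNPC alone (18, 16.4%, 10.6 to 24.4%) and in eA alone (16, 14.5%, 9.16 to 22.3%). Only 5 were in aNPC and eA and 1 in aNPC and lA. In the windows of all coding genes, with 71503 distal sites, the shares were 20.4% for all stages, 15.7% for eA and lA, 19.8% for lA alone, 22.1% for aNPC alone and 13.8% for eA alone. These shares lie inside the intervals of the 10 genes. The count for lA alone was 12 in place of 21 when only peaks with a −log10 q of at least 5 were kept. Sites present at all stages were also the higher-ranked ones, with median ranks of 70.1, 74.0 and 73.5, while sites of aNPC, eA or lA alone had medians of 38.1, 28.2 and 21.1. Pattern and rank come from the same peak calls, so this contrast is not a separate result. A site took the rank of its highest peak in a list, and sites at all stages were wider. Their median width was 1061 bp, against 390.5, 198 and 270 bp for sites of a single stage. All distal sites of the lists showed the same contrast, with median ranks of 63.5, 65.3 and 66.7 for sites at all stages and 29.6, 21.1 and 25.5 for sites of a single stage.

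**Figure D2:**
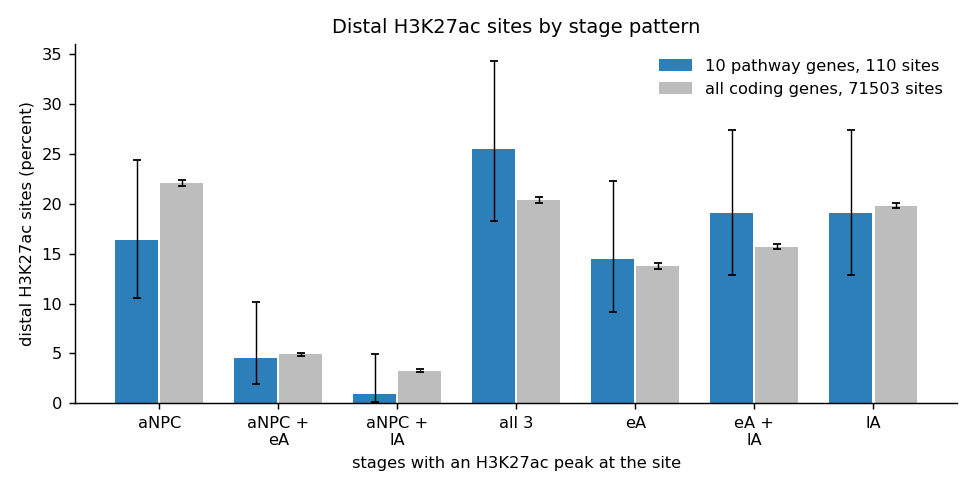
Share of distal H3K27ac sites (percent) by the stages at which a peak was called, for the 10 pathway genes (blue) and all coding genes (grey); error bars are 95% Wilson intervals. Every grey bar lies within the interval of the blue bar beside it.

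H3K4me1 lay at most of these sites, and the stage at which it was first called differed with the H3K27ac pattern. Of the 28 sites with H3K27ac at all stages, 27 had H3K4me1 at each stage (96.4%, against 92% for all coding genes). At the 21 sites acetylated in eA and lA, 14 already had H3K4me1 in the progenitors (66.7%, 45.4 to 82.8%), 20 after 1 day and 21 after 5 days. At the 21 sites acetylated in lA alone, 3 had H3K4me1 in the progenitors (14.3%, 4.98 to 34.6%), 15 after 1 day (71.4%) and 17 after 5 days (81%). For all coding genes the shares in aNPC, eA and lA were 69.1%, 92% and 91.8% at sites acetylated in eA and lA. At sites acetylated in lA alone they were 31.8%, 62.6% and 74.7%. Of all 58 sites without H3K27ac in aNPC, 25 had H3K4me1 there (43.1%, 31.2 to 55.9%), against 50.7% for all coding genes. At the 18 sites acetylated in aNPC alone, H3K4me1 was called at 15, 11 and 9 of them (83.3%, 61.1% and 50%), against 70.2%, 64.8% and 50.4% for all coding genes.

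**Figure D3:**
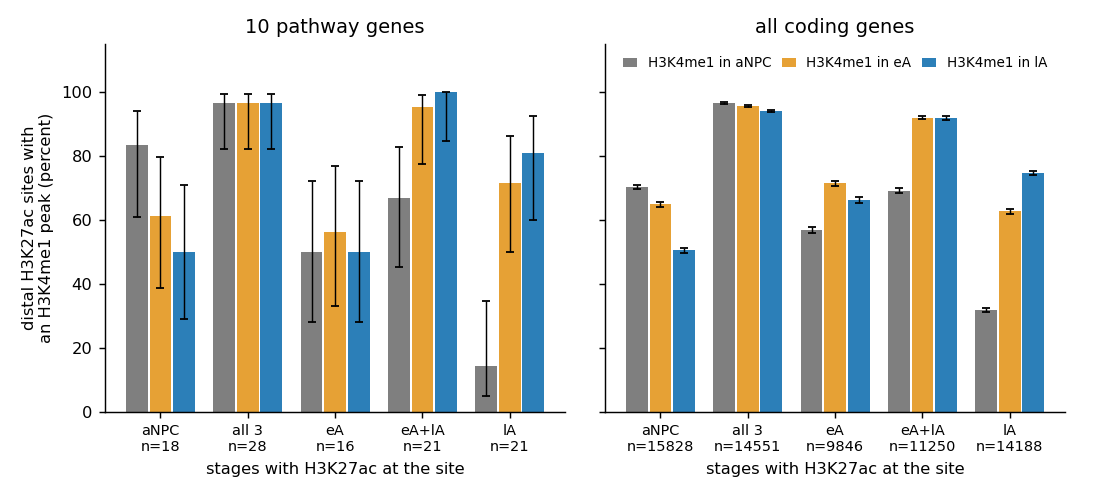
Percent of distal H3K27ac sites with an H3K4me1 peak in aNPC, eA or lA, grouped by the stages with H3K27ac at the site, for the 10 pathway genes (left) and all coding genes (right); n is the number of sites and error bars are 95% Wilson intervals. Sites acetylated in lA alone had the lowest share with H3K4me1 in aNPC, 14.3% at the pathway genes and 31.8% at all coding genes.

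Many H3K4me1 sites never gained a called H3K27ac peak. Of 248 distal H3K4me1 sites at the 10 genes, 157 (63.3%) overlapped no H3K27ac peak at any stage, against 60.9% for all coding genes. There were 95 H3K4me1 sites at all stages (38.3%, against 37.4%) and 73 in lA alone (29.4%, against 23.6%). Of the 73 sites in lA alone, 67 overlapped no H3K27ac peak (91.8%, against 89.5%).

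Of the ligand genes, Bmp4 lacked H3K27ac and Tgfb2 carried it at its promoter and at distal sites of every stage. Bmp4 encodes a BMP ligand that drives progenitors towards astrocytes, and lies at chr14:47003195-47010344 on the minus strand. It had no H3K27ac peak within its 27.2 kb window, and the nearest one lay 369366, 126856 and 120828 bp from a Bmp4 start site. No H3K4me1 peak reached its promoter either. A single H3K4me1 site, chr14:47006896-47008010 in intron 1, was called at all stages, with ranks of 66.3, 74.4 and 82.7, and its summit sequence is the one printed above. A further 3 H3K4me1 sites were found in lA alone, with ranks of 38.3, 10.1 and 4.75. The window of Bmp4 also holds part of the gene model Gm15217. Other coding genes overlap the windows of Bmpr1a (9230112D13Rik and Mmrn2), Bmpr1b (Unc5c), Tgfbr2 (Gadl1) and Smad3 (Aagab).

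Tgfb2, which encodes the ligand TGF-β2, lies at chr1:188447065-188529871 on the minus strand. Its promoter H3K27ac peaks were chr1:188528815-188530078, chr1:188528794-188529821 and chr1:188528848-188529954, with ranks of 92.9, 91.1 and 88.1. The rank of its highest promoter H3K4me1 peak was 85.2, 59.5 and 54.9. The widest of these were chr1:188529315-188530134, chr1:188529460-188530529 and chr1:188529448-188530154. Distal H3K27ac peaks numbered 7, 13 and 13, so the higher count was already there after 1 day. The difference between lA and aNPC, 6 peaks, was 2 when only peaks with a −log10 q of at least 5 were kept. Intron 1 held both kinds of change. A site at 23.1 kb from the start, chr1:188506015-188507588, was acetylated in aNPC alone (rank 70.1) and kept H3K4me1 at all stages. Its nearest neighbour with a peak in lA but not in aNPC began 1.37 kb away, and a site at 20.4 kb, chr1:188509221-188509684, was acetylated in eA (rank 67.7) and lA (27.8) without H3K4me1 in aNPC. Sites of several stages are called highest, here and below, by their best rank in any 1 list. By this measure the highest site common to all stages was chr1:188479261-188480337 (87.1, 61.3 and 77.9), although chr1:188450880-188452570 ranked above it in eA and lA (83.9, 75.2 and 84.7). The highest in eA alone was chr1:188527938-188528663 (74.3), 1.57 kb from the start and 0.869 kb from the nearest coding start site. The highest in lA alone was chr1:188442104-188442742 (50.5), downstream of the gene.

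**Figure D4:**
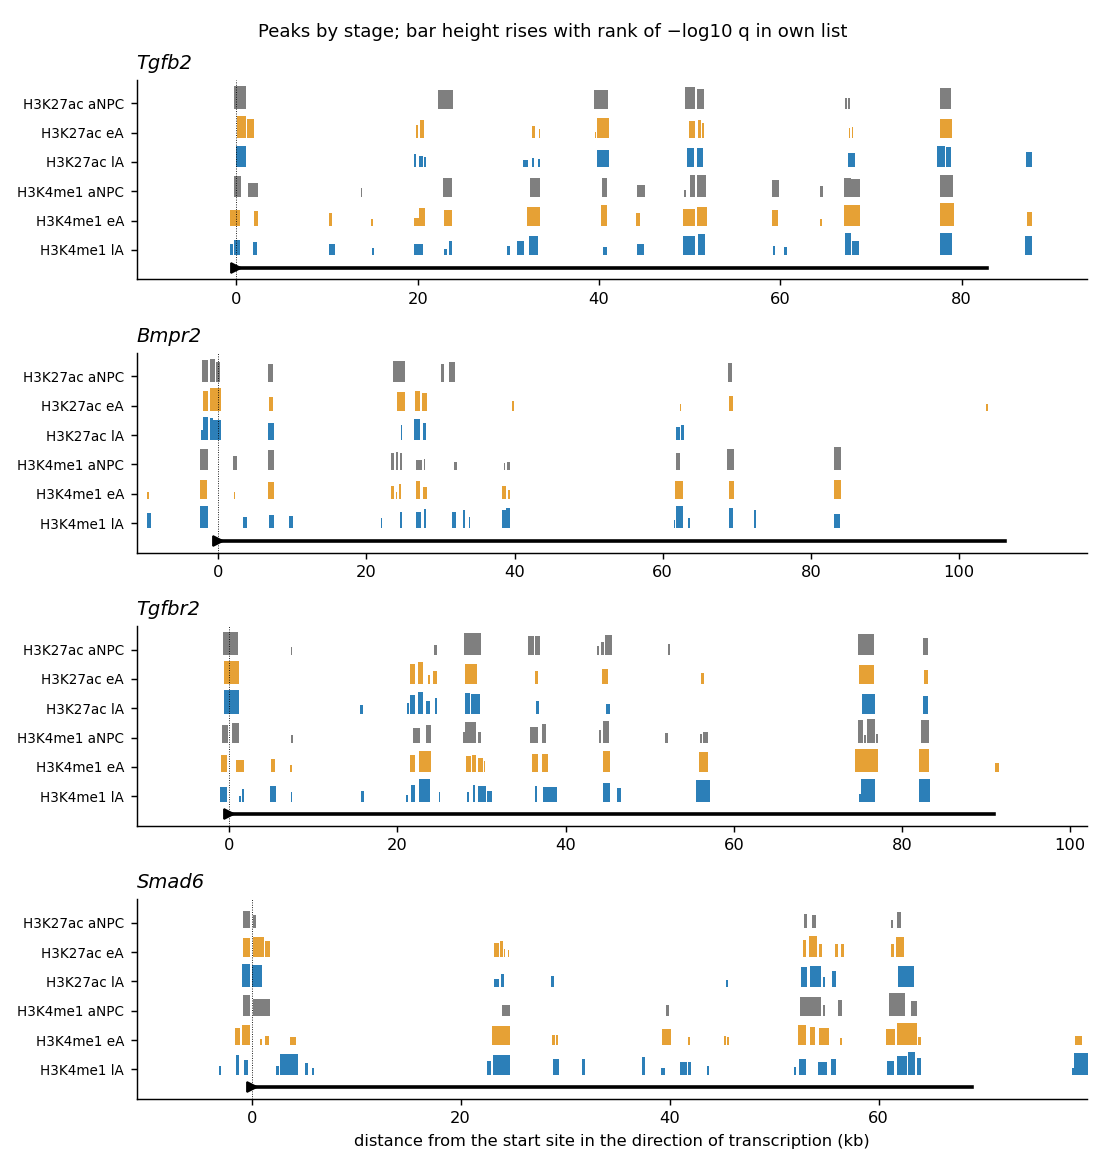
Peaks in the windows of Tgfb2, Bmpr2, Tgfbr2 and Smad6 by distance from the start site (kb, transcription to the right), 1 row per mark and stage; bar width is peak width and bar height grows with the rank of the peak in its own list. The black line is the gene body. In Tgfb2, Bmpr2 and Tgfbr2, the printed sites of aNPC alone and the highest sites of eA and lA lie within the first 35.9 kb of the gene, and at Smad6 the peaks 54.0 and 62.5 kb from the start are lower in aNPC (ranks 41.1 and 55.4) than in eA (87.5 and 79.4) and lA (83.3 for both).

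The 4 receptor genes all carried promoter H3K27ac at every stage, where the background was 50.6%, 53.2% and 48.2%. Each also had a distal site without a peak in aNPC and with one in lA. This call was made at 36.7% of coding genes, and at 66.3% of those with windows of 80 to 130 kb. In all, the 4 genes had no aNPC peak at 25 of 51 distal sites (49%, against 49.3% over all coding genes). Together they held 51 distal H3K27ac sites, of which 15 were present at all stages (29.4%, against 20.4% over all coding genes), 10 in eA and lA (19.6% and 15.7%), 9 in aNPC alone (17.6% and 22.1%), 8 in eA alone (15.7% and 13.8%), 7 in lA alone (13.7% and 19.8%) and 2 in aNPC and eA (3.92% and 4.9%). Bmpr1a, a type I BMP receptor gene, lies at chr14:35223920-35316527 on the minus strand. Its highest promoter peak ranked 97.7 in aNPC (chr14:35316028-35316693), 98.2 in eA (chr14:35316044-35316772) and 99.5 in lA (chr14:35316095-35316919), and the widest aNPC promoter peak was chr14:35314825-35315635. On the same site the eA and lA peaks chr14:35314503-35315598 and chr14:35314501-35315433 (97.9 and 96.8) ended 16 and 181 bp short of the promoter region and count as distal. Its highest promoter H3K4me1 peak ranked 58.9, 47.5 and 55.2, and lay at the start site of a shorter transcript inside the gene. The widest were chr14:35274455-35274765, chr14:35317201-35317678 and chr14:35316872-35317951. There were 5, 10 and 8 distal H3K27ac peaks.

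At Bmpr1a the intron 1 site chr14:35296877-35297581, 18.6 kb from the start, had no H3K27ac peak in aNPC and ranked 77.2 in eA and 83.2 in lA, with H3K4me1 at all stages. A site common to all stages in intron 2, chr14:35266445-35268450, ranked 64.6, 87.6 and 94.4, so its place in the list was higher at both astrocyte stages. The single site of aNPC alone (chr14:35268511-35269002, rank 31.4), the highest of eA alone (chr14:35242675-35242818, 11.9) and the single one of lA alone (chr14:35280695-35280909, 8.61) ranked low.

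Bmpr1b encodes the other type I BMP receptor of this set and is the longest gene (chr3:141500100-141832389, minus strand, a window of 352 kb). H3K27ac peaks lay at the start of its long transcripts and also 238 kb inside the gene, at the start sites of shorter ones. The highest promoter peak ranked 82.3 in aNPC (chr3:141831723-141832252), 92.7 in eA (chr3:141831661-141832261) and 83.5 in lA (chr3:141831707-141832280), with the eA value above the others. The widest in eA was the inner one, chr3:141593958-141594767. Promoter H3K4me1 ranked 64.5, 84.8 and 76.8 at chr3:141831235-141832218, chr3:141831274-141832091 and chr3:141831295-141832111, and was likewise highest in eA.

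Bmpr1b had few H3K27ac peaks for its size. Its density of 0.227, 0.284 and 0.284 peaks per 10 kb was above that of only 38.0%, 37.7% and 38.9% of coding genes. Distal peaks numbered 6, 7 and 8. The intron 1 site chr3:141696635-141697717 had no peak in aNPC and ranked 68.0 in eA and 71.3 in lA, with H3K4me1 at all stages. It lay beside the highest site of lA alone (chr3:141696076-141696309, 54.6). The highest of aNPC alone was chr3:141583842-141584267 (60.4), of eA alone chr3:141595794-141595960 (39.9), of aNPC and eA chr3:141726440-141727127 (29.6 and 45.1), and of all stages chr3:141599280-141600324 (73.7, 89.0 and 71.5), which led in eA only, since chr3:141568545-141569379 ranked higher in aNPC and lA (76.9, 85.8 and 87.9).

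Bmpr2 encodes the type II BMP receptor and lies at chr1:59821481-59927703 on the plus strand. Its promoter was acetylated at every stage with ranks of 95.5, 96.8 and 93.2, and the widest peaks were chr1:59820318-59821081, chr1:59820323-59821887 and chr1:59820854-59821834. It was the only gene with promoter H3K27ac at each stage and no promoter H3K4me1 at any. The H3K4me1 peaks flanked the promoter instead, at a site 1.83 kb upstream (chr1:59819163-59820139) that was acetylated at all stages with ranks of 92.2, 81.9 and 96.6.

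Intron 1 of Bmpr2 also held sites of opposite pattern. The smallest gap between a site of aNPC alone and one absent in aNPC and present in lA was 1.98 kb here. It was 0.494 kb at Smad3, 1.37 kb at Tgfb2, 8.1 kb at Tgfbr2, 8.48 kb at Smad7, 11.7 kb at Bmpr1a and 38.1 kb at Bmpr1b. Such gaps were not measured over all coding genes. The sites chr1:59847869-59848750 (ranks 77.9 in eA and 89.5 in lA) and chr1:59848958-59849632 (67.1 and 65.5), 26.8 and 27.8 kb from the start, had no H3K27ac peak in aNPC but H3K4me1 at all stages. From 1.98 kb further on lay the sites chr1:59851610-59851964 (69.6) and chr1:59852649-59853506 (76.9), which were acetylated in aNPC alone. At chr1:59852649-59853506 H3K4me1 was called in aNPC and lA but not in eA. The AP-1 match printed in capitals is in the site 26.8 kb from the start. Other sites were chr1:59890224-59890897 in aNPC and eA (72.0 and 51.0), chr1:59861148-59861409 in eA alone (21.1) and chr1:59883965-59884361 in lA alone (51.7).

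Tgfbr2 encodes the type II TGF-β receptor and lies at chr9:115993415-116084383 on the minus strand. Its promoter H3K27ac peak ranked highest of the 10 genes in aNPC and eA, at 98.5 (chr9:116083352-116085103) and 99.2 (chr9:116083171-116084959), and reached 99.5 in lA (chr9:116083207-116084975). Promoter H3K4me1 ranked 68.1, 64.9 and 49.1 at chr9:116084547-116085283, chr9:116084623-116085345 and chr9:116084653-116085444, that is, lower at each later stage. The number of distal H3K27ac peaks hardly differed, with 11, 11 and 12, although not all were at the same sites. Of 16 distal sites, 6 were shared by all stages (37.5%, against 20.4% over all coding genes). In aNPC alone there were 4 (25%, against 22.1%). A further 3 were in eA and lA (18.8% and 15.7%), 2 in lA alone (12.5% and 19.8%) and 1 in eA alone (6.25% and 13.8%).

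The 3 Tgfbr2 sites of eA and lA lay next to each other in intron 1, from 21.8 to 23.7 kb from the start. They were chr9:116062275-116062902 (ranks 83.3 and 70.2), chr9:116061284-116061921 (89.8 and 90.2) and chr9:116060484-116060922 (18.3 and 38.4). The middle one, whose sequence is printed above, ranked highest of all 21 sites with this pattern at the 10 genes. All 3 had H3K4me1 peaks in aNPC. The highest site of aNPC alone was chr9:116048134-116048859 (70.9), 35.9 kb from the start, with H3K4me1 in aNPC and eA but not in lA. The highest shared site was chr9:116054451-116056430 (91.2, 82.7 and 81.8), and those of eA alone and lA alone were chr9:116027899-116028254 (32.7) and chr9:116062970-116063205 (28.9).

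The receptor-regulated Smad genes had 25 distal H3K27ac sites, 8 of them in lA alone (32%, 17.2 to 51.6%, an interval that holds the 19.8% of all coding genes), and 6 of these 8 were at Smad3. Smad1, which carries the BMP signal, lies at chr8:81862294-81923417 on the minus strand. Its promoter H3K27ac peak ranked 95.6 in aNPC (chr8:81921907-81923417) and 98.3 in eA (chr8:81921482-81923375). In lA the peak chr8:81921575-81923246 ranked 99.3 but ended 71 bp short of the promoter region and 171 bp from the start site, so Smad1 is not among the 8 genes counted with a promoter peak in lA, although this peak lies on the same site. Promoter H3K4me1 was weak in all lists, with ranks of 22.0, 25.2 and 38.0 at chr8:81923524-81923785, chr8:81923591-81923772 and chr8:81923573-81923961. Distal H3K27ac peaks numbered 2, 7 and 9, the last including the peak beside the promoter. The difference of 7 between lA and aNPC was 4 with a −log10 q of at least 5. No Smad1 site was acetylated in aNPC alone (0 of 7 distal sites, 0 to 35.4%, an interval that holds the 22.1% of all coding genes). The highest shared site, chr8:81872989-81875805, ranked 90.6, 83.6 and 91.3, below chr8:81883450-81885457 in eA (87.4), while those absent in aNPC ranked low: chr8:81906857-81907067 in eA alone (43.3), chr8:81872465-81872927 in eA and lA (18 and 15), and chr8:81866148-81866343 in lA alone (11.7).

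Smad3, which carries the TGF-β signal, lies at chr9:63494574-63605801 on the minus strand and had the most distal sites, 18. Its highest promoter H3K27ac peak ranked 88.8, 92.0 and 94.1. The widest was at an inner start site, 91 kb into the gene, at chr9:63514100-63515571, chr9:63513666-63515636 and chr9:63514721-63516026. Promoter H3K4me1 ranked 98.9, 99.9 and 92.1, the highest of the genes at each stage, and its widest peaks were chr9:63513648-63516065, chr9:63560056-63561493 and chr9:63514756-63516164. Distal H3K27ac peaks numbered 11, 6 and 12, so that eA had the fewest. Smad3 thus differed from the other genes with distal peaks, of which only Smad7 had fewer in eA than in aNPC.

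Of the 18 distal Smad3 sites, 6 were in lA alone (33.3%, Wilson 95% interval 16.3 to 56.3%), 5 in aNPC alone (27.8%, 12.5 to 50.9%) and 2 at all stages (11.1%, 3.10 to 32.8%). The shares over all coding genes, 19.8%, 22.1% and 20.4%, lay inside these intervals. A site of lA alone, chr9:63596037-63596325, and one of aNPC alone, chr9:63596820-63597073, were 0.494 kb apart in intron 1, at 9.62 and 8.86 kb from the start. They lay 2.70 and 1.94 kb from the nearest coding start site, that of a shorter transcript. The highest of aNPC alone was chr9:63596820-63597073 (62.0), of lA alone chr9:63526020-63526455 (54.5), of eA alone chr9:63595886-63596029 (7.95), and of eA and lA chr9:63506992-63507421 (0.556 and 57.5). The site chr9:63512612-63512971 was in aNPC and eA (51.4 and 19.1), chr9:63535044-63535466 in aNPC and lA (34.6 and 23.5), and chr9:63500902-63501578 at all stages (9.01, 44.1 and 69.7). The difference in distal peaks, lA minus aNPC, was 1 as counted here and −2 when only peaks with a −log10 q of at least 5 were kept, so it has no stable direction.

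Smad6 encodes an inhibitor of BMP signalling that is itself induced by it, and lies at chr9:63800953-63869866 on the minus strand. Its promoter showed the widest spread in H3K27ac rank of the 10 genes. The highest H3K27ac promoter peak ranked 61.2 in aNPC (chr9:63869973-63870645), 79.8 in eA (chr9:63868716-63869778) and 94.1 in lA (chr9:63870044-63870747). Over the 10104 coding genes with a promoter peak at all stages the median rank was 91.6, 93.2 and 90.3, so Smad6 lay below this median in aNPC and eA and above it in lA. Its summed promoter peak width was 673 bp, 1721 bp and 1651 bp, against medians of 1203, 1327 and 1084 bp. The aNPC width leaves out a peak of 336 bp, chr9:63869417-63869752 (rank 40.7), which ended 14 bp short of the promoter region on a site that counted as promoter in eA and lA. In lA the widest promoter peak was chr9:63868862-63869808. Promoter H3K4me1 went the other way, with ranks of 83.1 (chr9:63869973-63870700), 82.6 (chr9:63870054-63870736) and 49.3 (chr9:63870243-63870623). Over the 10448 coding genes with a promoter H3K4me1 peak at all stages the median rank was 78.4, 76.8 and 78.1. This rank was also lower in lA than in aNPC at Tgfb2, Bmpr1a, Tgfbr2, Smad3 and Smad7, and higher at Bmpr1b and Smad1.

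**Figure D5:**
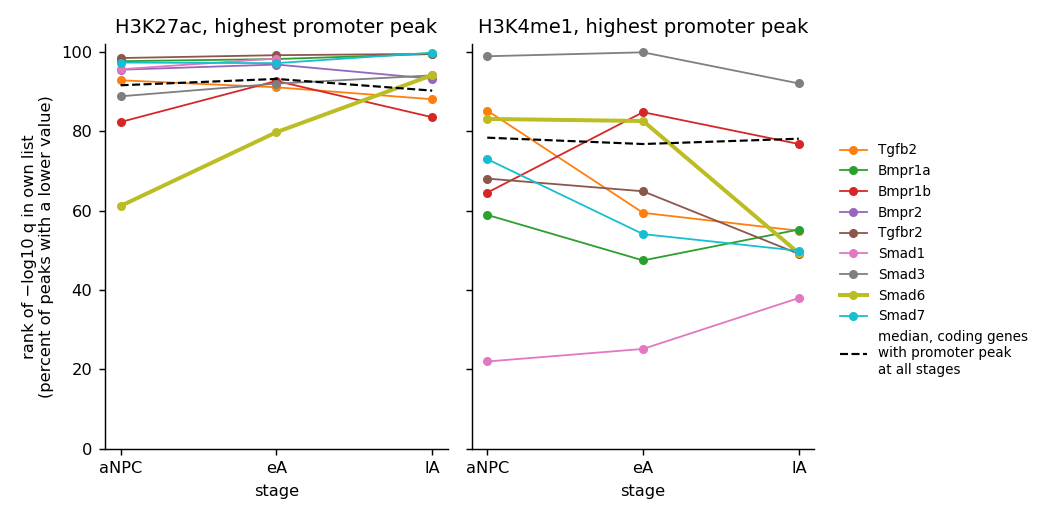
Rank of the highest promoter peak of each gene in its own list (percent of peaks with a lower −log10 q), by stage, for H3K27ac (left) and H3K4me1 (right), with the median over coding genes that have a promoter peak at all stages (dashed). The thick Smad6 line goes from 61.2 to 94.1 for H3K27ac and from 83.1 to 49.3 for H3K4me1; a gene without a promoter peak in a list has no point there.

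The window of Smad6 had 6, 14 and 11 H3K27ac peaks and 9, 20 and 26 H3K4me1 peaks. H3K27ac peaks covered 2.66%, 6.99% and 7.58% of it, above the cover of 51.4%, 80.6% and 84.2% of coding genes in the same lists. No Smad6 site was acetylated in aNPC alone (0 of 13 distal sites, 0 to 22.8%, an interval that holds the 22.1% of all coding genes). Of 13 distal sites, 9 had no peak in aNPC (69.2%, 42.4 to 87.3%, an interval that holds the 49.3% of all coding genes). The shared sites in intron 3 ranked higher in both astrocyte lists, with 41.1, 87.5 and 83.3 at chr9:63815252-63816490 and 55.4, 79.4 and 83.3 at chr9:63806450-63808215. Sites absent in aNPC included chr9:63845575-63846061 in eA and lA (58.8 and 40.6), chr9:63868148-63868540 in eA alone, in exon 1 (57.0), and chr9:63840954-63841178 in lA alone (25.3). The site of aNPC and eA was chr9:63808353-63808721 (11.2 and 43.8). Of 25 distal H3K4me1 sites at Smad6, 12 were in lA alone (48%, against 23.6% for all coding genes), and 11 of these 12 overlapped no H3K27ac peak (91.7%, against 89.5%). The 4 more distal H3K27ac peaks in lA than in aNPC were 2 both with a −log10 q of at least 5 and with lists of equal length, and 18 with windows of 50 kb.

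Smad7 encodes the inhibitory Smad that acts on both branches. Its promoter ranked 97.3, 97.2 and 99.8, the last the highest of the 10 genes in lA. Promoter H3K4me1 ranked 73.0, 54.1 and 49.9. Its distal H3K27ac peaks numbered 6, 5 and 2, a difference of −4 between lA and aNPC that was −1 when only peaks with a −log10 q of at least 5 were kept, while its distal H3K4me1 peaks numbered 6, 8 and 12. Of its 6 distal H3K27ac sites, 2 were in aNPC alone, the higher of them 15.0 kb from the start (rank 45.0), 1 in aNPC and eA (23.6 and 14.2), 1 in eA alone (24.9) and none in lA alone. A site in eA and lA 23.9 kb from the start ranked 21.1 and 34.8, and the shared site, 37.6 kb from the start and downstream of the gene, ranked 55.7, 45.1 and 73.3.

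A further 30 genes of the pathway, with a median window of 57.3 kb, were counted in the same way. A promoter H3K27ac peak was present at 24, 25 and 20 of them, or 80%, 83.3% and 66.7%, against 50.6%, 53.2% and 48.2% of coding genes. A promoter H3K4me1 peak was present at 28, 28 and 24, or 93.3%, 93.3% and 80%, against 55.4%, 53.6% and 52.7%. By role, H3K27ac promoters numbered 5, 7 and 5 of 9 ligand genes, 7, 6 and 4 of 8 receptor genes, 4, 4 and 3 of 4 Smad genes, and 8 at each stage of 9 inhibitor genes. A distal H3K27ac site absent in aNPC and present in lA was found at 18 of the 30 (60%, background 36.7%) and the opposite at 15 (50%, background 31.5%). Of their 190 distal sites, 45 were shared by all stages (23.7%, and 20.4% over all coding genes), 43 were in lA alone (22.6% and 19.8%), 38 in eA and lA (20% and 15.7%), 27 in aNPC alone (14.2% and 22.1%) and 21 in eA alone (11.1% and 13.8%). Sites absent in aNPC and present in lA made up 35.6% of the distal sites of all coding genes, and 14 of 15 at Bmp6, a BMP ligand gene whose window held 0, 12 and 15 H3K27ac peaks. They were 19 of 30 at Tgfbr3, the co-receptor betaglycan, 11 of 20 at Acvr1, a type I receptor, and 6 of 6 at Eng, the co-receptor endoglin. These were picked for their counts after the values were seen. Of the other Smad genes, Smad2, Smad4 and Smad5 had no such site, and 4, 2 and 2 sites present in aNPC and absent in lA. Smad9 had 1 site absent in aNPC and present in lA and none of the opposite kind. Grem1, a secreted BMP antagonist, had like Bmp4 no H3K27ac peak at any stage.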

How the data were processed

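Chromatin of mouse ES-derived aNPC, eA and lA was immunoprecipitated for H3K27ac or H3K4me1, 2 libraries per stage and mark. Per the study's methods, the authors aligned unique reads to mm9 with Bowtie, merged replicates with SAMtools (version 0.1.19 in the submitters' notes) and called peaks with MACS2 at default settings without input. The deposited lists hold, per peak, the −log10 q value and, as another unit, the summit offset in bp. Read depth is not given in the lists, so no depth interval could be set.

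RNA-seq and knockdown libraries were not used here. Genes were those of GENCODE M1, on NCBIM37 (mm9). No peak ran past a chromosome end. Windows, promoters, joined sites, ranks and Wilson intervals (95%) were computed in Python 3.11.15, and sequences were read with pysam 0.24.0. The scripts were tested on simulated peaks. For each gene the text names promoter peaks and, in each stage pattern, the distal H3K27ac site of highest rank in any list, which for Smad7 is given by distance from the start only. Distances of distal sites from the start run from the start of the longest coding transcript to the centre of the site. The members and lists were chosen with earlier results of these data known. Alternatives were −log10 q of at least 5, lists of equal length, sharing by summit, promoters of 2 kb on each side and windows of 5 or 50 kb.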

Additional observations from a re-analysis of the deposited data

How the results depend on the processing

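Of 83 repeated values over the 10 genes together, 76 stayed within 1.5 times as counts, or within the binomial interval as a share. Of 45 repeated differences at single genes, without Bmp4, which has no peak under any setting, 28 stayed within 1.5 times, 14 moved further and 3 changed sign. The count of distal H3K27ac sites in lA alone moved in 3 settings, to 12 in place of 21 both with a −log10 q of at least 5 and with lists of equal length, and to 36 with windows of 50 kb. Windows of 50 kb also gave 149 H3K27ac peaks in lA in place of 97, 28 sites in aNPC alone in place of 18, and 32 in eA and lA in place of 21. At Smad3 the difference in distal H3K27ac peaks, lA minus aNPC, was 1 as reported, −2 with a −log10 q of at least 5, −3 with lists of equal length and −4 with windows of 50 kb, so no direction can be given for it. At Tgfbr2 the same difference was 1 as reported and 0 with lists of equal length. Promoters of 2 kb on each side, sharing by summit and windows of 5 kb moved no count over the 10 genes past 1.5 times, but the difference became 5 at Smad3 with the wider promoters and −2 in place of −4 at Smad7 with windows of 5 kb. It was −1 at Smad7 with a −log10 q of at least 5, and 18 in place of 4 at Smad6 with windows of 50 kb. More peaks in lA were counted at 8 genes as reported, 7 with a −log10 q of at least 5, 6 with lists of equal length and 7 with windows of 50 kb. More distal H3K4me1 peaks in lA were counted at 10 genes as reported and at 5 with lists of equal length, an alternative added after seeing the data. No paired analysis was possible because the replicates were merged before peaks were called, and for the same reason no replicate could be left out. Counts of peaks without depth cannot separate weak signal from none, and lists of different length limit every comparison between stages.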
